A study of Oryzias latipes with 18 samples.

Results

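The genes described here are the nuclear-encoded subunits of the oxidative phosphorylation machinery in the testis of medaka (Oryzias latipes, a small freshwater fish). They were chosen by name: rows whose gene name, case ignored, begins with ndufa, ndufb, ndufc, ndufs or ndufv (complex I), sdha to sdhd (complex II), uqcr or cyc1 (complex III), cox4 to cox8 (complex IV) or atp5 (complex V), without the assembly factors ndufaf and sdhaf, and with a mean of at least 10 normalized reads over the 18 libraries. Of 22941 rows, 14992 carried a name, 77 matched these names and 72 of them reached the mean. These 72 members are among the 18792 genes tested. The rule uses names and that mean alone; the set itself was picked with earlier results of these data known.

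RNA from testes was sequenced in 6 groups of 3 biological replicates each, formed by 2 lineages and 3 concentrations of PFOS (perfluorooctane sulfonate, a persistent fluorinated surfactant), given for 21 days. The control lineage had no BPA-exposed ancestors and received PFOS at 0, 0.002 or 0.02 mg/L. The BPA lineage, which received the same 3 concentrations, descended from fish that had been exposed as embryos to bisphenol A (BPA, a plastics monomer with oestrogenic activity) at 10 µg/L, 4 generations earlier. The design asks how PFOS acts on the male gonad with and without that ancestry. The labels give no strain, no age at sampling and no number of fish per library, so p-values measure the spread between these libraries.

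Oxidative phosphorylation makes ATP at the inner mitochondrial membrane. Complexes I and II pass electrons from NADH and succinate to coenzyme Q, complex III hands them to cytochrome c, complex IV passes them to oxygen, and complex V (ATP synthase) uses the proton gradient built by complexes I, III and IV. A few catalytic subunits are encoded in the mitochondrial genome and the others in the nucleus, and in the testis the balance between this pathway and glycolysis is known to change as germ cells pass from spermatogonia through meiosis to spermatids.

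The members comprised 33 genes of complex I, 4 of complex II, 9 of complex III, 13 of complex IV and 13 of complex V. In complex I, NDUFS1, ndufs3, ndufs7, ndufs8a, ndufv1 and ndufv2 are among the core subunits that carry the flavin, the iron-sulphur clusters and the quinone site, and the remaining ndufa, ndufb, ndufc and ndufs genes encode accessory subunits. Both NDUFA4 and ndufa4 are counted with complex I by name, although in mammals the NDUFA4 protein is assigned to complex IV. Complex II was represented by sdha (the flavoprotein that oxidises succinate), sdhb (its iron-sulphur partner) and the membrane anchors sdhc and sdhdb. Complex III was represented by uqcrfs1 (the Rieske iron-sulphur protein), the core proteins uqcrc1, uqcrc2a and uqcrc2b and the small subunits uqcrb, uqcrh, uqcrq, uqcr10 and UQCR11; no row was named cyc1. The complex IV members were nuclear regulatory subunits, and the complex V members included atp5fa1 and atp5f1b (the alpha and catalytic beta subunits), atp5mc1 (the proton-carrying ring) and atp5if1b (the inhibitor protein). The symbols atp5fa1 and cox6b2 each stood on 2 rows, told apart below by their Ensembl identifiers.

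The filter removed 5 rows, which are not described further: ndufa4l2a with a mean of 3.31 normalized reads, ndufa4l2b with 1.51, ndufb10 with 6.29, atp5mf with 2.1 and atp5pf with 7.58. The member nearest the limit was atp5f1d, the delta subunit of the ATP synthase head, with 15.7. The genes highest by normalized reads in their complex were NDUFA4 (mean 7378), sdhb (2731), uqcrfs1 (8184), cox6b2 ENSORLG00000024493 (9437) and atp5if1b (11123). These means are not divided by transcript length and give no order of abundance between genes.

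The libraries held 23.7 M to 47.7 M recovered reads. In the 17 libraries analysed, the germ cell gene ddx4 ranged from 21983 to 49655 normalized reads, the Sertoli cell gene gsdf from 15527 to 39868 and the medaka sex-determining gene dmy from 1465 to 4470, so the defining testis genes were present in each. The library labelled control lineage PFOS 0.002 mg/L replicate 2 was set apart and enters no value below unless it is named. It correlated with its own group at only 0.771 and 0.779, against 0.927 to 0.971 between other replicates, its summed oocyte and ovary genes reached 928615 normalized reads against 434 to 7685 elsewhere, and its gsdf, at 4495, lay below the range of the others. Its group is therefore n = 2. A second library, labelled BPA lineage PFOS 0.02 mg/L replicate 3, stood apart for the members themselves. It had the most reads (47.7 M) and was the highest of the 17 libraries for 47 of the 72 members (65.3%), against 15.1% of all genes tested. It lay above both other libraries of its group for 62 members (86.1%, against 42.6% of all genes tested) and below both for 7. The comparisons of the members that include it are given with and without it.

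As a description of the whole set, each member's log2(value + 1) was expressed relative to its mean over the 17 libraries and averaged over the 72 members. The control lineage without PFOS stood at -0.13, -0.08 and -0.23, below every other control lineage library. Those given 0.002 mg/L stood at 0.09 and 0.21, those given 0.02 mg/L at 0.04, 0.05 and 0.16. BPA lineage libraries without PFOS stood at 0.12, 0.16 and -0.15, at 0.002 mg/L at -0.02, -0.19 and -0.07, and at 0.02 mg/L at -0.30, -0.22 and 0.53. The value of 0.53 belongs to replicate 3, while the -0.30 of replicate 1 in the same group was the lowest of the 17. These averages carry no test. In bulk tissue, fewer cells of a type and less RNA per cell cannot be told apart.

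**Figure D1:**
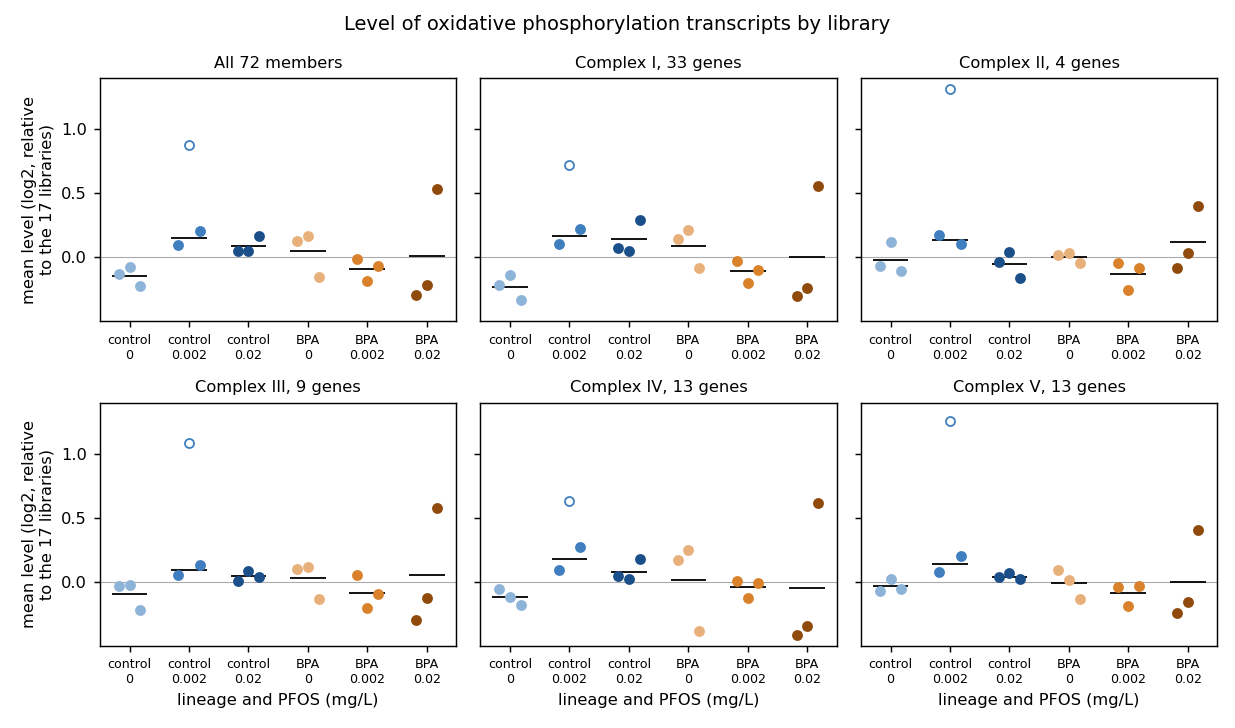
Mean level of the members in each library (log2, relative to the 17 libraries analysed) for all 72 members and for each complex, by lineage and PFOS in mg/L; bars are group means without the library set apart, which is drawn as an open circle. All 3 control lineage libraries without PFOS lie below the other control lineage libraries in the panel of all members, and 1 BPA lineage library at 0.02 mg/L lies at 0.53, far above the other 2.

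The members took between 0.828% and 1.18% of each library's reads. Their share was 0.909% ± 0.0279 (SD, n = 3) in the control lineage without PFOS, 1.01% ± 0.0300 (n = 2) at 0.002 mg/L and 0.998% ± 0.0370 (n = 3) at 0.02 mg/L. The BPA lineage had 1.01% ± 0.00591 without PFOS, 0.939% ± 0.0417 at the lower dose and 0.962% ± 0.192 at the higher (n = 3 each), and the 3 libraries of the last group held 0.828%, 0.876% and 1.18%. Without replicate 3 the mean of that group was 0.852% (n = 2), the lowest of the 6, and with it the lowest was the control lineage without PFOS.

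**Figure D2:**
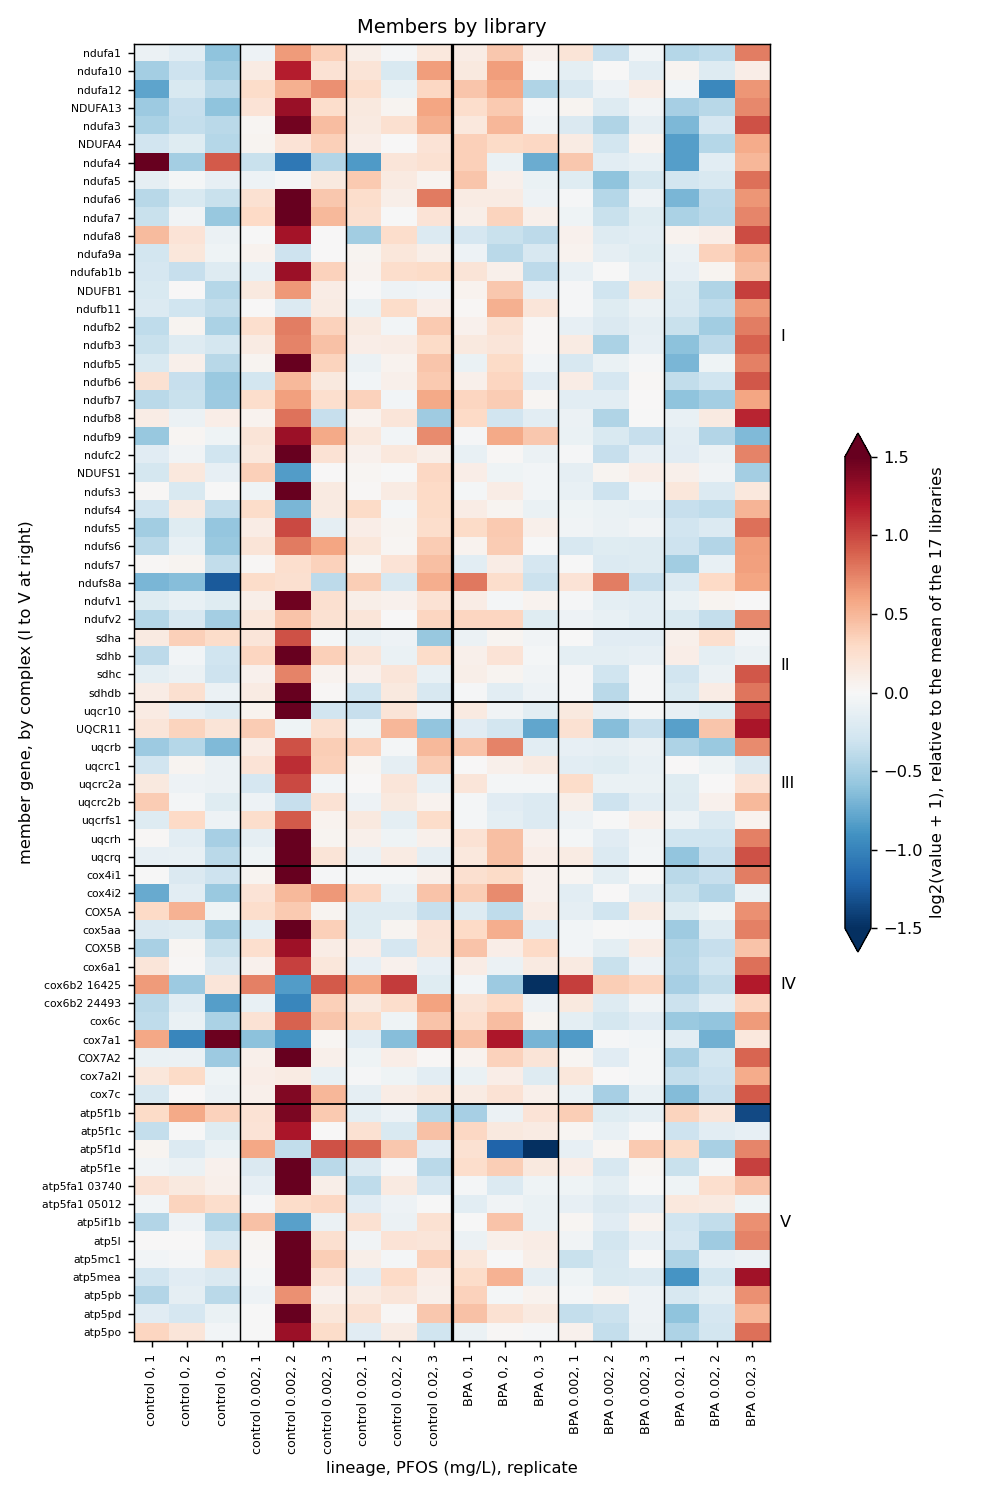
All but 1 of the 72 members (rows, by complex) in the 18 libraries (columns, by lineage, PFOS in mg/L and replicate), as log2(value + 1) relative to the mean of the 17 libraries analysed; red is higher, blue lower. Control lineage 0.002 mg/L replicate 2 (set apart) and BPA lineage 0.02 mg/L replicate 3 stand out as mostly red columns, and in the second atp5f1b, ndufb9 and NDUFS1 are blue.

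PFOS in the control lineage was followed by higher levels of a few members. With PFOS at 0.002 mg/L only cox4i2 rose, by 0.92 ± 0.23 (log2 difference ± SE), and at 0.02 mg/L cox6b2 ENSORLG00000024493 (0.80 ± 0.22), cox4i2 (0.70 ± 0.21) and ndufa10 (0.64 ± 0.20) rose while sdha fell by 0.51 ± 0.16. A difference of 1 on this scale is a 2-fold change. The 1 member called at 0.002 mg/L is 1.39% of the members, beside 4.59% of all genes tested, and the 4 called at 0.02 mg/L are 5.56%, beside 12.8%; in neither case were members called more often than genes at large. The adjusted p-values are from limma with Benjamini-Hochberg adjustment over 18792 genes, with a threshold of 0.05.

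Cox4i2 encodes the second isoform of the subunit that sets the ATP sensitivity of complex IV, an isoform tied in mammals to lung and to low oxygen. Its normalized reads were 1052, 1584 and 1209 in the control lineage without PFOS, 2049.7 and 2779 at the lower dose and 2215, 1639 and 2389 at the higher. Every exposed library lay above every unexposed one, with limma's adjusted p = 0.0393 at 0.002 mg/L and 0.0393 at 0.02 mg/L. In the library set apart the value was 2479, inside the range of its group. The call at 0.002 mg/L was lost without control lineage PFOS 0 replicate 1 (0.79, adjusted p = 0.140), without PFOS 0 replicate 3 (0.89, adjusted p = 0.0921) or without PFOS 0.002 replicate 3 (0.70, adjusted p = 0.438). The call at 0.02 mg/L was lost without PFOS 0 replicate 1 or 3 and without PFOS 0.02 replicate 1 or 3, with differences of 0.57 to 0.67.

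For cox6b2 ENSORLG00000024493, whose mammalian counterpart is the testis isoform of complex IV subunit VIb, the control lineage libraries held 7148, 8449.7 and 5337 normalized reads without PFOS and 10456, 11361 and 14337 at 0.02 mg/L. The groups did not overlap (adjusted p = 0.0285). For ndufa10, an accessory subunit of complex I, the values were 3397, 3877 and 3359 without PFOS, 5266 and 5620.1 at the lower dose and 5519.7, 4104 and 7459 at the higher. All exposed libraries were again higher (adjusted p = 0.0475 at 0.02 mg/L and 0.104 at 0.002 mg/L). Sdha, the catalytic subunit of complex II that also serves the citric acid cycle, stood at 2003, 2346 and 2214 without PFOS and at 1694, 1735 and 1235 at 0.02 mg/L, so its exposed libraries were all lower (adjusted p = 0.0467).

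None of the 4 calls at 0.02 mg/L held without control lineage PFOS 0 replicate 1, PFOS 0 replicate 3, PFOS 0.02 replicate 1 or PFOS 0.02 replicate 3. Each of these fits left 0 members called, beside 0.447%, 5.09%, 2.95% and 0.41% of all genes in that order. The calls of ndufa10 and sdha were also lost without PFOS 0 replicate 2. Leaving out PFOS 0.02 replicate 2 gave 8 calls, beside 16.6% of all genes. Fitting only the 2 groups compared also gave 4 calls, beside 8.82% of all genes. However, cox4i2 (limma's adjusted p = 0.0659), sdha (0.0979) and ndufa10 (0.0893) were no longer among them. NDUFA13, a complex I accessory subunit, missed the threshold with 0.75 ± 0.25 (adjusted p = 0.0590), as did sdhb at 0.002 mg/L with 0.58 ± 0.17 (adjusted p = 0.0541) and ndufs6 with 0.75 ± 0.26 (0.0902).

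Beyond these calls the fitted differences of the members were mostly positive and small. At 0.002 mg/L 57 of 72 were above 0, with a median of 0.32 beside 0.01 for all genes tested. In limma 17 of the 72 had an unadjusted p under 0.05, beside 5022 of the 18792 genes. At 0.02 mg/L 55 were above 0, with a median of 0.28 beside 0.03. There 19 of the 72 had an unadjusted p under 0.05, beside 5955 of the 18792 genes. In neither case was the members' share above that of all genes. The medians at 0.02 mg/L were 0.38 for complex I, 0.00 for complex II, 0.08 for complex III, 0.26 for complex IV and 0.19 for complex V, and differences between complexes were not tested. Both comparisons share the same 3 unexposed libraries.

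Between the control lineage's own doses, 0.02 against 0.002 mg/L, limma called 0 members, edgeR 0 and DESeq2 0, beside 0% of all genes in limma. There 0 members had an unadjusted p under 0.05, beside 899 of the 18792 genes. The median was -0.06. The members with the smallest p included sdha at -0.33 ± 0.18, COX5A at -0.39 ± 0.25, atp5fa1 ENSORLG00000005012 at -0.24 ± 0.17 and atp5f1b at -0.52 ± 0.37, each with an adjusted p of 0.991.

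The unexposed control lineage libraries differed from the others in markers of other tissues. Summed over 19 pancreas, gut and kidney genes they held 92866, 5815 and 43796 normalized reads, against 1074 to 3086 in the other 14 libraries analysed. In the comparison at 0.02 mg/L 11 of those 19 genes fell, in that at 0.002 mg/L 4, and 0 rose. Of 17 muscle and connective tissue genes 6 fell at 0.02 mg/L, and of 10 oocyte and ovary genes 5 rose there, with sums of 434 to 585 without PFOS and 1031 to 7685 at 0.02 mg/L. The Sertoli cell list had 3 of 9 genes lower at each dose. Of 11 meiotic prophase genes 2 rose and 2 fell at 0.02 mg/L and 1 rose at 0.002 mg/L. At most 1 marker of a list was at 0 reads in a library. The part of these tissues in the members' differences was not tested.

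**Figure D3:**
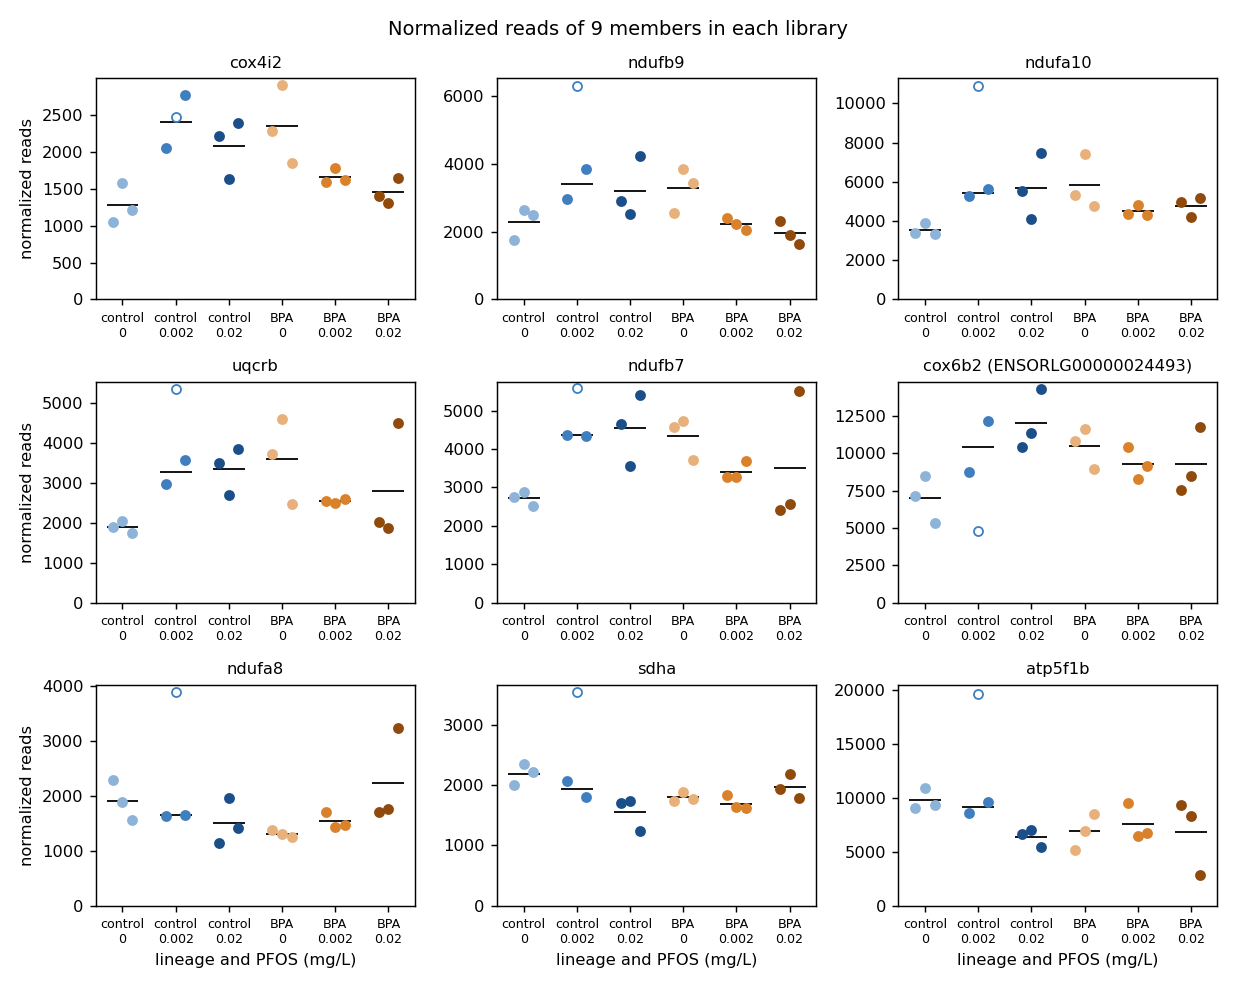
Normalized reads of 9 members in each library, by lineage and PFOS in mg/L; each panel has its own axis from 0, bars are group means without the library set apart, drawn as an open circle. For cox4i2 the unexposed control lineage libraries lie between 1052 and 1584, below all other control lineage libraries, whereas in the BPA lineage the unexposed libraries lie highest.

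Without PFOS, the BPA lineage exceeded the control lineage in 2 members and was lower in 0. Cox4i2 was higher by 0.87 ± 0.21 (adjusted p = 0.0179) and ndufa10 by 0.70 ± 0.20 (adjusted p = 0.0388). These 2 are 2.78% of the members, beside 10.3% of all genes tested. For cox4i2 the BPA lineage libraries held 2285, 2907 and 1856 normalized reads and for ndufa10 5349, 7414 and 4782, all above the control lineage values given above. Of the 72 members 54 were above 0, with a median of 0.27 beside 0.07 for all genes. In limma 19 of the 72 had an unadjusted p under 0.05, beside 5395 of the 18792 genes, a larger share.

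Next in order of p were uqcrb, a small complex III subunit near the quinone site, with 0.89 ± 0.28 (adjusted p = 0.0518), the complex I subunits ndufs5 with 0.68 ± 0.23 (0.0654) and ndufs8a with 1.103 ± 0.39 (0.0735), none past the threshold. The low-count core subunit ndufs8a had 82.8, 85 and 55 normalized reads in the control lineage and 231, 159.6 and 106 in the BPA lineage; its groups did not overlap. Leaving out BPA lineage PFOS 0 replicate 1 or 2, or control lineage PFOS 0 replicate 1 or 3, left 0 members called. Ndufa10 was also lost without control lineage PFOS 0 replicate 2 (limma's adjusted p = 0.0502), and leaving out BPA lineage PFOS 0 replicate 3 left 4. These counts are given without the share of all genes called by the same fits and are no result about the members alone. The unexposed control lineage libraries are the same as in the dose comparisons, and of the 19 pancreas, gut and kidney genes 2 were lower in the BPA lineage (sums of 1708, 1913 and 3086). So were 3 of 11 meiotic prophase genes (sums of 42434 to 57932 in the control and 39001 to 45984 in the BPA lineage), 2 of 16 spermatid and flagellum genes (80573 to 110113 and 82578 to 87414), amh of the Sertoli cell list (56025 to 75476 and 48673 to 64663) and mylka of the muscle and connective tissue list, in which col1a2 was higher. Called or not, 7 of the 11 meiotic prophase genes were higher in the BPA lineage, with a list median of 0.19. Other sums were higher there without overlap, with 0 genes called. These were Leydig cell (1401 to 1659 in the control and 2462 to 3646 in the BPA lineage), blood (119 to 243 and 275 to 874) and oocyte and ovary (434 to 585 and 716 to 948). The part of these cells in the members' difference was not tested.

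In the BPA lineage, PFOS at 0.002 mg/L was followed by no change that passed the test. Limma called 0 members, edgeR 0 and DESeq2 0, beside 0% of all genes in limma. There 4 members had an unadjusted p under 0.05, beside 1795 of the 18792 genes. Fitted differences were below 0 for 58 of 72 members, with a median of -0.20 beside -0.05 for all genes. The smallest p-values belonged to cox6b2 ENSORLG00000016425 (2.40 ± 0.96, adjusted p = 0.480), ndufb9 (-0.54 ± 0.23), atp5pd (-0.52 ± 0.22), cox4i2 (-0.47 ± 0.21) and atp5f1d (1.16 ± 0.59). For the first, 1 library was far lower than the rest. Normalized reads of that gene without PFOS were 2296, 1619 and 78.2. The 78.2 of replicate 3 compares with 1619 to 5367 in the other libraries analysed.

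For the higher dose in the same lineage, limma called 0 members, edgeR 0 and DESeq2 3, beside 0.41% of all genes in limma and 5.74% in DESeq2. In limma 6 members had an unadjusted p under 0.05, beside 3458 of the 18792 genes. The smallest p-values belonged to ndufb9, an accessory subunit of complex I (-0.74 ± 0.23, adjusted p = 0.112), cox4i2 (-0.67 ± 0.21, 0.117), ndufa8 (0.71 ± 0.24, 0.143), ndufa9a (0.50 ± 0.18, 0.158) and atp5f1c (-0.39 ± 0.17, 0.239). For cox4i2 the libraries held 1406, 1305 and 1653 normalized reads, and those of the lower dose 1595, 1781 and 1618, all below the 3 unexposed BPA lineage libraries. The median was -0.12 with 48 of 72 below 0, but the fits to recovered reads gave medians of -0.0026 (edgeR) and -0.0046 (DESeq2) with 36 of 72 above 0. Of 17 muscle and connective tissue genes tagln fell. Amh rose among 9 Sertoli cell genes, of which only 4 had differences above 0 (list median -0.21). Smc1b rose among 11 meiotic prophase genes, of which 9 had differences above 0 (median 0.16). Sums without PFOS and at 0.02 mg/L were 27248 to 44615 and 12536 to 22761 for muscle and connective tissue. They were 39001 to 45984 and 50605 to 66022 for meiotic prophase, and 1708 to 3086 and 1314 to 1616 for pancreas, gut and kidney. The sums of the other marker lists overlapped. The part of these cells was not tested.

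Without replicate 3 of that group, the library in which the members stood highest, 9 members fell at 0.02 mg/L, beside 3.63% of all genes, and the median moved to -0.39 beside -0.09 for all genes. These were NDUFA4 (-0.95 ± 0.17, adjusted p = 0.0133), uqcrb (-0.85 ± 0.21), cox6c (-0.83 ± 0.17), ndufb7 (-0.80 ± 0.17), uqcrq (-0.70 ± 0.17), atp5pd (-0.69 ± 0.17), COX5B (-0.67 ± 0.18), NDUFA13 (-0.67 ± 0.18) and cox4i1 (-0.58 ± 0.14), with limma's adjusted p between 0.0133 and 0.0485. NDUFA4 shows the pattern: its normalized reads were 9159, 8726 and 8877 without PFOS and 4035, 5317 and 10528 at 0.02 mg/L. In that fit the group has n = 2, and its spread is estimated from all groups. The library was left out knowing that the members were high in it, so lower values without it follow in part from that choice. Without replicate 1 or 2 instead, 0 members were called in limma, beside 1.55% and 0.0106% of all genes. At an unadjusted p under 0.05 there were 8 and 5 members, and the medians were 0.068 and 0.0077.

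Between the doses of the BPA lineage, 0.02 against 0.002 mg/L, limma called 0 members, edgeR 0 and DESeq2 0, beside 0% of all genes in limma. There 0 members had an unadjusted p under 0.05, beside 477 of the 18792 genes. The median was 0.11 and moved to -0.19 without BPA lineage PFOS 0.02 replicate 3. The members with the smallest p were ndufa8 at 0.48 ± 0.24, ndufa9a at 0.35 ± 0.18, ndufb8 at 0.57 ± 0.31, ndufa5 at 0.45 ± 0.26 and sdhdb at 0.37 ± 0.22, all with overlapping groups.

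Under the same PFOS concentration, the lineages did not differ in any member past the threshold. At 0.002 mg/L limma, edgeR and DESeq2 each called 0 members, beside 0% of all genes in limma. There 6 members had an unadjusted p under 0.05, beside 1583 of the 18792 genes. Fitted differences were below 0 for 65 of 72 members, with a median of -0.24 beside -0.02 for all genes. Sdhb was nearest the threshold with -0.48 ± 0.17 (adjusted p = 0.477): the control lineage held 2967 and 3063 normalized reads and the BPA lineage 2146, 2149 and 2179, without overlap. Uqcrc1 (-0.43 ± 0.17), ndufb9 (-0.60 ± 0.25) and ndufs6 (-0.60 ± 0.26) followed.

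At 0.02 mg/L limma, edgeR and DESeq2 again each called 0 members, beside 0.0213% of all genes in limma. There 5 members had an unadjusted p under 0.05, beside 2270 of the 18792 genes. The median was -0.10, and without BPA lineage PFOS 0.02 replicate 3 it was -0.38 with 62 of 72 below 0 and still 0 called, beside 0.0319% of all genes. The member nearest the threshold was ndufb9 with -0.70 ± 0.23 (adjusted p = 0.262), where the control lineage held 2897, 2521 and 4224 normalized reads and the BPA lineage 2313, 1904 and 1643. Cox4i2 (-0.51 ± 0.21), atp5fa1 ENSORLG00000003740 (0.38 ± 0.17), ndufa8 (0.54 ± 0.24) and sdha (0.35 ± 0.16) followed.

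The lineages differed in their response to PFOS for several members. The interaction, the PFOS difference in the BPA lineage minus that in the control lineage, passed the test for 1 member at 0.002 mg/L and for 7 at 0.02 mg/L. The first is 1.39% of the members beside 0.899% of all genes tested, the second 9.72% beside 14.2%. Without BPA lineage PFOS 0.02 replicate 3 the second was 50% of the members beside 21.4%. That library was left out knowing that the members were high in it, so the higher share follows in part from that choice. The difference between the members and other genes was not tested. Cox4i2 passed at both doses, with -1.39 ± 0.31 at 0.002 mg/L (adjusted p = 0.0485) and -1.38 ± 0.29 at 0.02 mg/L (adjusted p = 0.00776). At 0.02 mg/L it was the only one of the 7 whose call held in every alternative run, leaving out each library included; at 0.002 mg/L the call was lost in edgeR (adjusted p = 0.057). It was lost there too without BPA lineage PFOS 0 replicate 1 or 2, any BPA lineage PFOS 0.002 library, control lineage PFOS 0 replicate 1 or 3, or control lineage PFOS 0.002 replicate 3, with limma's adjusted p from 0.0806 to 0.318.

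**Figure D4:**
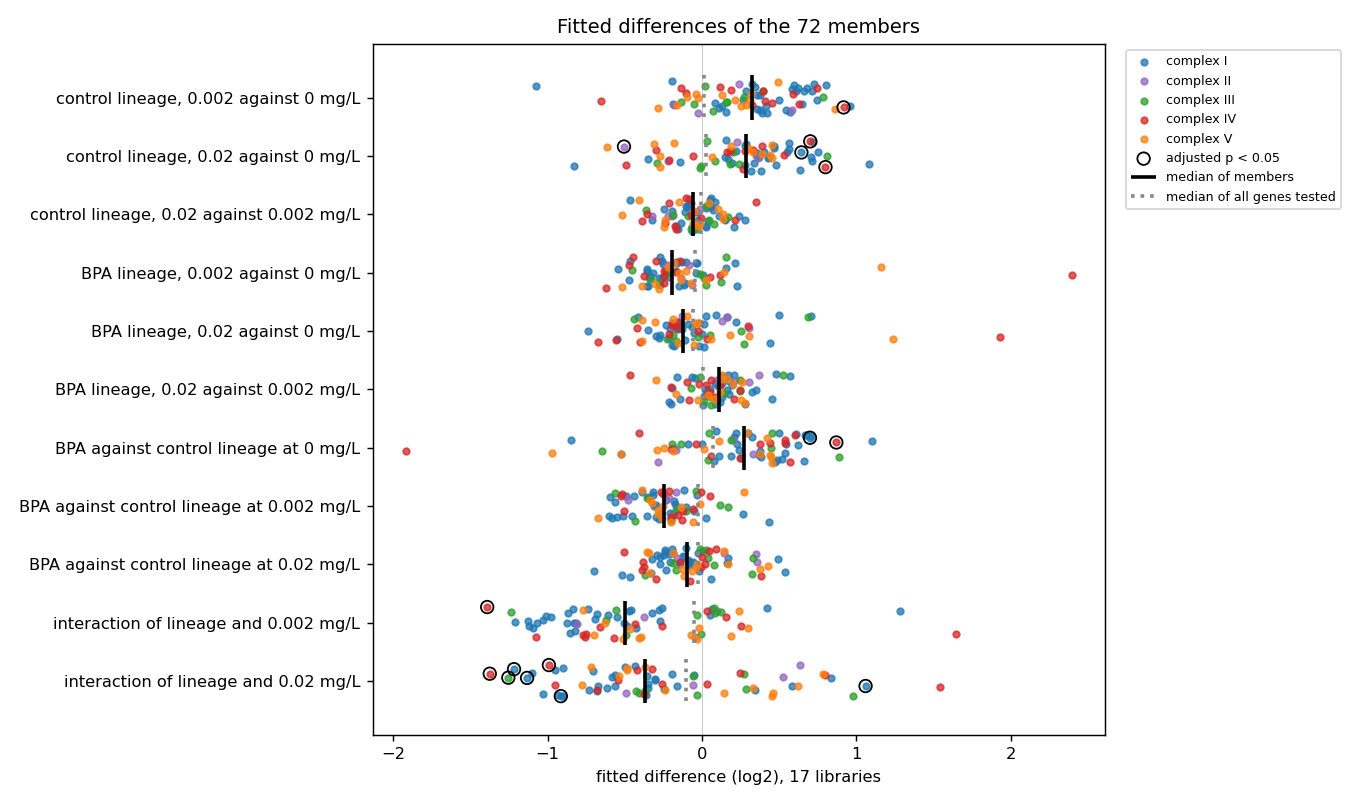
Fitted log2 differences of the 72 members in 11 comparisons from the 17 libraries, coloured by complex; black rings mark members past an adjusted p of 0.05, solid bars the members' median and dotted bars the median of all genes tested. The members' medians are 0.32 and 0.28 for PFOS in the control lineage, -0.20 and -0.12 in the BPA lineage, and -0.50 and -0.37 for the interactions.

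Of the other 6 members called at 0.02 mg/L, 3 are complex I subunits with negative interactions. Ndufb9 had -1.22 ± 0.32 (adjusted p = 0.0197), ndufb7 -1.13 ± 0.35 (0.0402) and ndufa10 -0.92 ± 0.29 (0.0433). Ndufb9 and ndufb7 encode accessory subunits of the membrane arm, the proton-pumping part of the complex. The normalized reads of ndufb9 were 1740.0, 2636 and 2486 and 2897, 2521 and 4224 in the control lineage at 0 and 0.02 mg/L, and 2551, 3854 and 3429.8 and 2313, 1904 and 1643 in the BPA lineage. Within the BPA lineage the exposed libraries were all lower than the unexposed ones, whereas in the control lineage the groups overlapped.

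For ndufb7 the control lineage held 2761, 2890.5 and 2504 normalized reads without PFOS and 4656, 3556 and 5409 at 0.02 mg/L, all higher. The BPA lineage held 4567, 4738 and 3717 and 2408, 2567 and 5515, where replicate 3 of the exposed group was the highest of all 6 and the other 2 the lowest. Uqcrb, in complex III, had an interaction of -1.26 ± 0.39 (adjusted p = 0.0428). Its reads were 1892, 2049 and 1737 and 3502, 2703 and 3852 in the control lineage, and 3724, 4603 and 2478 and 2005, 1875 and 4497 in the BPA lineage, where replicate 3 was again above 2 of the unexposed libraries and the other exposed libraries below all of them.

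In complex IV, cox6b2 ENSORLG00000024493 had an interaction of -0.99 ± 0.31 (adjusted p = 0.0402), with 10812, 11624 and 8962 normalized reads in the BPA lineage without PFOS and 7549.9, 8483 and 11798 at 0.02 mg/L; these groups overlapped. The 1 positive interaction was that of ndufa8, an accessory subunit on the intermembrane-space side of complex I, with 1.06 ± 0.34 (adjusted p = 0.0442). Its control lineage libraries held 2287, 1888 and 1552 and 1149, 1968 and 1423 normalized reads at 0 and 0.02 mg/L, and its BPA lineage libraries 1381, 1299.5 and 1253 and 1711, 1767 and 3243. All 3 exposed BPA lineage libraries were above the unexposed ones, and 3243 of replicate 3 was the highest of the 17.

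These calls depended on single libraries. The call of ndufb9 was lost without BPA lineage PFOS 0 replicate 2, control lineage PFOS 0 replicate 1 or control lineage PFOS 0.02 replicate 3, and those of uqcrb, ndufb7, ndufa10, cox6b2 and ndufa8 were each lost without at least 8 of the 12 libraries, with adjusted p from 0.0518 to 0.130. Leaving out 1 library of the 4 groups compared left between 1 and 36 of the 72 members called. The count was 1 without control lineage PFOS 0 replicate 1, without control lineage PFOS 0.02 replicate 3 or without BPA lineage PFOS 0 replicate 2, 2 without control lineage PFOS 0.02 replicate 1 or BPA lineage PFOS 0 replicate 1, 3 without control lineage PFOS 0 replicate 3 or BPA lineage PFOS 0.02 replicate 2, and 4 without BPA lineage PFOS 0.02 replicate 1. It was 11 without control lineage PFOS 0.02 replicate 2 and 36 without BPA lineage PFOS 0.02 replicate 3. In the latter fit 21.4% of all genes were called, against 14.2% from 17 libraries. The other counts are given without that share and are no result about the members alone. Between such fits the share can move widely. For 0.02 mg/L in the control lineage it ran from 0.41% to 16.6%. With all 18 libraries the count of members was 1 (cox4i2), beside 1.39% of all genes. The interactions share the unexposed control lineage libraries with the comparisons above, and markers of several cell types passed the same test at 0.02 mg/L. Positive were 3 of 11 meiotic prophase genes (smc1b, sycp1 and msh4), amh among 9 Sertoli cell genes, cfap43 among 16 spermatid and flagellum genes, mylka among 17 muscle and connective tissue genes and 1 of the 19 pancreas, gut and kidney genes. Negative were nanos3 among 6 spermatogonia genes and 2 of the 10 oocyte and ovary genes. Called or not, only 4 of the 11 meiotic prophase genes had an interaction above 0, with a list median of -0.25. Above 0 were 8 of the 9 Sertoli cell genes (median 0.50) and 3 of the 6 spermatogonia genes (0.02). So were 18 of the 19 pancreas, gut and kidney genes (median 2.501) but only 2 of the 10 oocyte and ovary genes (-1.318). Of the 16 spermatid and flagellum genes 11 were above 0 (median 0.165), and of the 17 muscle and connective tissue genes 10 (0.124). The part of these cells in the members' interactions was not tested.

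Without BPA lineage PFOS 0.02 replicate 3, 34 members had a negative and 2 a positive interaction at 0.02 mg/L. The members' median moved from -0.37 to -0.70, and that of all genes from -0.10 to -0.14. The direction of that move follows in part from leaving out the library in which the members were high; without replicate 1 or 2 instead the median was -0.25 or -0.27. From 17 libraries, the medians on recovered reads were -0.22 in edgeR and -0.21 in DESeq2, where those of all genes were near 0. Of the 7 members called from 17 libraries 6 were called here too; the exception, ndufa8, had 0.76 ± 0.27 (adjusted p = 0.0580). The 34 comprised 17 of 33 members of complex I, 3 of 9 of complex III, 8 of 13 of complex IV and 6 of 13 of complex V. The most negative were uqcrb (-1.66 ± 0.29), ndufb7 (-1.52 ± 0.23), cox4i2 (-1.47 ± 0.30), NDUFA13 (-1.42 ± 0.24), ndufa3 (-1.37 ± 0.30), cox6c (-1.36 ± 0.23), NDUFA4 (-1.35 ± 0.22), ndufa12 (-1.32 ± 0.40), ndufa6 (-1.31 ± 0.27) and cox6b2 ENSORLG00000024493 (-1.18 ± 0.28), with limma's adjusted p between 0.000797 and 0.0304.

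NDUFA13, which in mammals is also known as a cell death regulator, shows the values behind this count. Its normalized reads were 2565, 2939 and 2467 and 4118, 3837 and 5625 in the control lineage at 0 and 0.02 mg/L. In the BPA lineage they were 4466, 4916 and 3694 and 2649, 2788 and 6173, and the last value, of the library in question, exceeded all others of the 17. The complex IV subunit cox6c held 4574, 5536 and 4276 and 7253, 5665 and 7954 in the control lineage, and 7097, 8183 and 6112 and 4041, 3933 and 9262 in the BPA lineage. For both genes the first 2 exposed BPA lineage libraries lay below all 3 unexposed ones and the third above them.

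The 2 positive interactions in that fit were those of the catalytic subunits sdha (0.70 ± 0.22, adjusted p = 0.0325) and atp5f1b (0.999 ± 0.28, adjusted p = 0.0201). Atp5f1b, the catalytic beta subunit of ATP synthase, held 9034, 10910.4 and 9374 normalized reads in the control lineage without PFOS and 6689.9, 7014 and 5487 at 0.02 mg/L. In the BPA lineage it held 5210.1, 6949 and 8522 and 9308, 8367 and 2876, and replicate 3 was here the lowest of the 17.

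**Figure D5:**
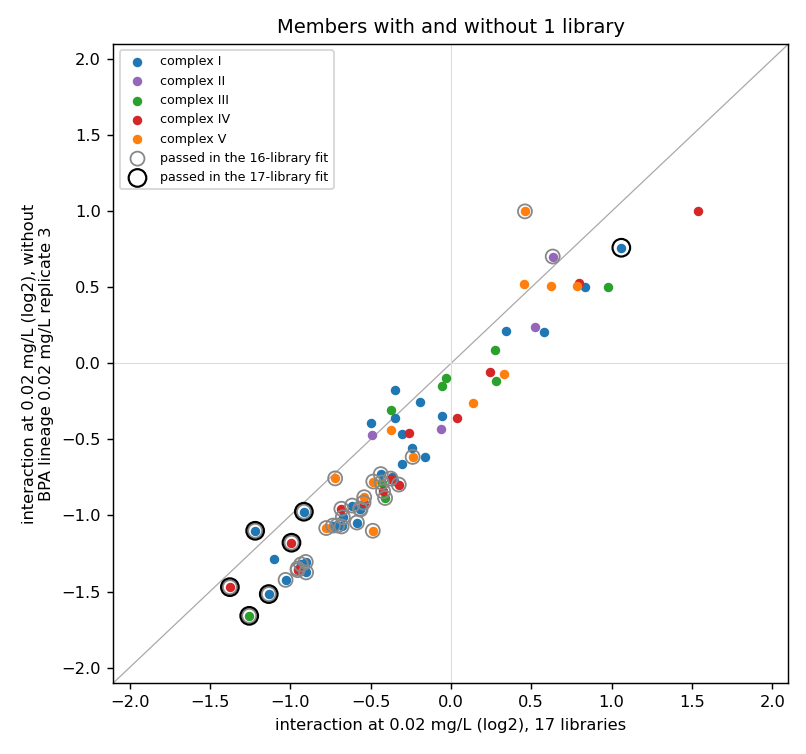
Interaction of lineage and PFOS 0.02 mg/L (log2) for each member, from the 17 libraries (x axis) and without BPA lineage 0.02 mg/L replicate 3 (y axis), coloured by complex; black rings mark members past an adjusted p of 0.05 from 17 libraries, grey rings those past it from 16. Most points lie below the diagonal, and 36 members pass in the second fit against 7 in the first.

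The library labelled BPA lineage PFOS 0.02 mg/L replicate 3 was also high for other lists. Relative to the 17 libraries it stood at 0.72 for cytosolic ribosomal proteins (others -0.36 to 0.36), at 0.51 for mitochondrial ribosomal proteins (others -0.38 to 0.27) and at 0.51 for spermatid and flagellum genes (others -0.41 to 0.30). Its 13 mitochondrially encoded mRNAs, at 0.27, lay inside the range of the others (-0.49 to 1.07). The part of its depth and of these lists in the members' values was not tested.

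In the same library, 2 sets of members stood in different places. The first, called core subunits here, held the 7 core subunits of complex I, sdha, sdhb, uqcrfs1, atp5f1b and both atp5fa1 rows. These 13 members were grouped after their values were seen. They lay above both other libraries of the group in 5 cases and below both in 5. Of the other 59 members 57 lay above and 2 below. Over all genes tested, 42.6% lay above both. Those 59 are not all accessory subunits, since they include sdhc, sdhdb and atp5mc1. Without that library, the core subunits had a median interaction at 0.02 mg/L of -0.25 with 1 lower call, ndufv2 at -1.01 ± 0.23, and the 2 higher calls above, while the other members had a median of -0.77 with 33 lower calls and 0 higher. In that fit 21.4% of all genes tested were called. From the 17 libraries the medians were -0.24 and -0.41. There 0 of the 13 core subunits and 7 of the 59 other members were called, beside 14.2% of all genes tested. Without PFOS, the lineage difference had a median of 0.08 in the core subunits and 0.37 in the other members. At 0.002 mg/L these medians were close, -0.27 and -0.24, and so they were at 0.02 mg/L, -0.13 and -0.08. The difference between these sets was not tested, and no transcript lengths were used.

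Within the set, the members with the widest range between group means in each complex were ndufs8a in complex I (1.103 on the log2 scale), sdhb in complex II (0.58), uqcrb in complex III (0.89), cox6b2 ENSORLG00000016425 in complex IV (2.66) and atp5f1d in complex V (1.83). The last has few reads, 16.9, 5.63 and 2.26 in the unexposed BPA lineage and 21.8 and 28.5 in the control lineage at 0.002 mg/L, and the 2.66 of cox6b2 ENSORLG00000016425 includes the low library named above. The most abundant member by reads in complex V, the ATP synthase inhibitor atp5if1b, had 8246, 10574 and 8176 normalized reads in the control lineage without PFOS and 13026, 10485 and 13082 at 0.02 mg/L, groups that overlapped narrowly, with 0.44 ± 0.25 (adjusted p = 0.232). The narrowest range between group means was that of the core protein uqcrc2a, at 0.18, and the Rieske protein uqcrfs1 had 0.29.

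Ratios between paralogs, which do not depend on the library's scaling, differed between groups in a few cases and are given without a test. The log2 ratio of cox4i2 to cox4i1, the broadly expressed isoform, was -1.45 ± 0.41 (SD, n = 3) in the control lineage without PFOS, -0.72 ± 0.35 (n = 2) at 0.002 mg/L and -0.93 ± 0.25 (n = 3) at 0.02 mg/L. In the BPA lineage it was -0.95 ± 0.22, -1.18 ± 0.18 and -1.43 ± 0.50 (n = 3 each), and the last was -1.15 without replicate 3. For this pair the unexposed control lineage ran from -1.88 to -1.08. That range overlapped the control lineage at 0.02 mg/L (-1.22 to -0.78) and the unexposed BPA lineage (-1.14 to -0.71). The ratio of cox7a2l, which in mammals helps complexes III and IV associate, to its paralog COX7A2 was 0.24 ± 0.10 in the unexposed control lineage (0.13 to 0.34) and 0.03 or lower in every library of the other 5 groups. The ratio of COX5A to cox5aa was -0.78 ± 0.13 in the unexposed control lineage, with all 3 libraries between -0.88 and -0.64, and ran from -2.28 to -0.94 in the others. Close paralogs can share reads, and how the counting treated such reads is not given in the sources used here.

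In none of the remaining pairs did the unexposed control lineage lie apart from all other libraries. For uqcrc2a to uqcrc2b, the unexposed BPA lineage (-2.86 to -2.78) lay above every control lineage library analysed (-3.25 to -2.90). It overlapped the BPA lineage at 0.002 mg/L (-2.94 to -2.79). The ratio of uqcrc2a to uqcrc2b had group means from -3.21 to -2.82, that of cox7a1 to COX7A2 from -5.28 to -4.31 and that of the 2 atp5fa1 rows from 0.36 to 0.65. The ratio of ndufa4 to NDUFA4 was -3.51 ± 1.17 in the unexposed control lineage and between -5.09 and -4.42 on average elsewhere; ndufa4 held 986, 221 and 594 normalized reads in the 3 unexposed control lineage libraries. The ratio of the 2 cox6b2 rows was -3.97 ± 2.49 in the unexposed BPA lineage and between -1.86 and -1.29 in the other groups.

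Assembly factors are proteins that build the complexes without being part of them. Of 43 measured, 2 rose and 1 fell at 0.002 mg/L in the control lineage, and 9 rose and 1 fell at 0.02 mg/L, with medians of 0.27 and 0.35; the shares called were 6.98% and 23.3%, beside 4.59% and 12.8% of all genes, and were not tested against them. At 0.02 mg/L the rises included nubpl, which inserts iron-sulphur clusters into complex I (0.86 ± 0.20), tmem126a (0.92 ± 0.22), smim20, a complex IV assembly protein (1.11 ± 0.27), and bcs1l, which inserts the Rieske protein (0.61 ± 0.16). For smim20 the normalized reads were 392, 405 and 419 without PFOS and 899.9, 671 and 1105 at 0.02 mg/L, without overlap.

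Between the unexposed lineages 4 assembly factors were higher and 3 lower in the BPA lineage (16.3%, beside 10.3% of all genes), among them bcs1l (0.57 ± 0.16) above and cox18 (-1.52 ± 0.32), cox15 (-1.71 ± 0.38) and atpaf2 (-1.28 ± 0.35) below. Cox18 inserts a mitochondrially encoded subunit of complex IV and cox15 makes its haem. The interaction at 0.02 mg/L passed for 9, 3 positive (including cox18, 2.45 ± 0.45, and cox15, 2.69 ± 0.53) and 6 negative (including sco1, -1.23 ± 0.28, and nubpl, -1.21 ± 0.28), with a list median of -0.30 and 20.9% called beside 14.2% of all genes. Without BPA lineage PFOS 0.02 replicate 3, the highest of the 17 libraries for this list, 3 were positive and 11 negative (32.6%, beside 21.4%), with a median of -0.46. Cox18 held 477, 299 and 334 normalized reads in the unexposed control lineage, 159, 262 and 126 at 0.02 mg/L, 144, 88.3 and 157 in the unexposed BPA lineage and 389, 313 and 302 at 0.02 mg/L, so the exposed libraries lay below the unexposed ones in the control lineage and above them in the BPA lineage.

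Genes that supply or regulate the chain were counted in shorter lists, so the shares called rest on few genes. The cytochrome c gene cycsb passed in none of the 11 comparisons from 17 libraries (lowest adjusted p = 0.165 in limma), with 0.29 ± 0.27 for 0.02 mg/L in the control lineage and -0.79 ± 0.38 for the interaction at 0.02 mg/L. Without BPA lineage PFOS 0.02 replicate 3 it passed both for that interaction (-1.22) and for 0.02 mg/L in the BPA lineage (-0.93). Of 14 genes of coenzyme Q synthesis pdss1 rose at 0.02 mg/L in the control lineage (0.58 ± 0.16), 7.14% of the list beside 12.8% of all genes. In the unexposed BPA lineage coq5 (-1.15 ± 0.24) and coq10b (-1.83 ± 0.48) were lower (14.3%, beside 10.3%). Both had positive interactions at 0.02 mg/L (1.67 ± 0.33 and 2.59 ± 0.67), 14.3% of the list beside 14.2%. Without BPA lineage PFOS 0.02 replicate 3, 2 of the 14 were positive and 3 negative (35.7%, beside 21.4%). Of 20 regulators of mitochondrial biogenesis, the coactivator ppargc1b fell (-1.17 ± 0.30) and its relative pprc1 rose (0.76 ± 0.23) at 0.02 mg/L in the control lineage (10%, beside 12.8%). The mitochondrial DNA-binding factor tfam had a negative interaction at 0.02 mg/L (-0.92 ± 0.29), 5% of the list beside 14.2%. Without BPA lineage PFOS 0.02 replicate 3, 3 of the 20 were positive and 2 negative (25%, beside 21.4%).

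In the citric acid cycle, which feeds the chain with NADH and succinate, 2 of 17 genes fell at 0.02 mg/L in the control lineage, the citrate synthase gene cs (-1.91 ± 0.50) and OGDH (-1.20 ± 0.38), a subunit of the oxoglutarate dehydrogenase complex; this is 11.8% of the list, beside 12.8% of all genes. In the unexposed BPA lineage cs (-2.41 ± 0.50), suclg2 (-1.29 ± 0.34) and IDH3A (-0.65 ± 0.20) were lower (17.6%, beside 10.3%). Cs (3.66 ± 0.70) and suclg2 (2.08 ± 0.49) had positive interactions at 0.02 mg/L, 11.8% of the list beside 14.2% of all genes. Without BPA lineage PFOS 0.02 replicate 3, 4 of the 17 were positive and 0 negative (23.5%, beside 21.4%). The normalized reads of cs were 772, 466 and 703 in the unexposed control lineage and 146, 361 and 90 at 0.02 mg/L, and 161, 87.3 and 117 and 424, 734 and 206 in the BPA lineage at the same doses. Of 5 carriers and channels vdac3 (-1.41 ± 0.34) and vdac2 (-1.11 ± 0.31), channels of the outer membrane, fell at 0.02 mg/L in the control lineage (40%, beside 12.8%). Of 9 genes of uncoupling and defence against reactive oxygen, cat, the peroxisomal catalase, fell there (-0.72 ± 0.19), 11.1% of that list. Vdac3 (2.35 ± 0.48), vdac2 (1.77 ± 0.45) and cat (1.07 ± 0.27) had positive interactions at 0.02 mg/L. These are 40% and 11.1% of their lists, beside 14.2% of all genes. Without BPA lineage PFOS 0.02 replicate 3 the carriers had 2 positive and 0 negative, the other list 1 and 1.

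The mitochondrial ribosome, which translates the mitochondrially encoded subunits, had 8 of 65 genes higher and 1 lower at 0.02 mg/L in the control lineage, with a median of 0.52. The 13.8% called was near the 12.8% of all genes. Among them were mrpl52 (1.37 ± 0.30) and mrpl14 (0.90 ± 0.25), with mrps22 lower (-0.86 ± 0.23). In the unexposed BPA lineage 5 were higher and 0 lower (7.69%, beside 10.3%), and for the interaction at 0.02 mg/L 1 was positive and 9 negative (15.4%, beside 14.2%), with a median of -0.57. Without BPA lineage PFOS 0.02 replicate 3 it was 1 and 30 (47.7%, beside 21.4%), with a median of -0.75. Of 66 genes named like cytosolic ribosomal proteins, rps3 fell at 0.02 mg/L in the control lineage; the 1 that rose, rps19bp1, encodes a protein that binds a ribosomal protein and is not one itself. Their median was 0.22.

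The 13 mRNAs of the mitochondrial genome, the partners of the nuclear subunits in complexes I, III, IV and V, took 2.48% ± 0.706 (SD, n = 3) of the reads in the unexposed control lineage and 3.67% ± 1.11 (n = 3) at 0.02 mg/L. BPA lineage shares were 4.14% ± 1.68 without PFOS and 3.09% ± 0.650 at 0.02 mg/L (n = 3 each). Among these mRNAs only ND6, a complex I subunit, passed limma's test from 17 libraries. It had 1.336 between the unexposed lineages (adjusted p = 0.0339) and -1.96 ± 0.53 for the interaction at 0.02 mg/L (adjusted p = 0.0231). Each is 7.69% of the 13, beside 10.3% and 14.2% of all genes. Without BPA lineage PFOS 0.02 replicate 3, 3 of the 13 were lower for that interaction and 0 higher (23.1%, beside 21.4%). The medians of the 13 were 0.44 for 0.02 mg/L in the control lineage, -0.48 in the BPA lineage and -1.06 for the interaction; the last pair was -0.65 and -1.16 without BPA lineage PFOS 0.02 replicate 3, and the share in that group 2.77% (n = 2).

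With the library set apart included, the comparison of 0.002 against 0 mg/L in the control lineage called 5 members, all higher, beside 7.85% of all genes, and the median moved from 0.32 to 0.67 while that of all genes moved from 0.01 to -0.15. The 5 were cox4i2, NDUFA13, ndufa10, sdhb and ndufs6. That library was the highest of the 18 for 44 of the 72 members (61.1%), against 28.2% of all genes. It held 37929 normalized reads of atp5mc1 against 4176 to 7441 elsewhere, 14122 of atp5pd and 7217 of uqcr10, and its oocyte genes were given above; their part in these values was not tested. With it included limma called 0 members for 0.02 mg/L in the control lineage, between the unexposed lineages and for the interaction at 0.002 mg/L, where 10, 10 and 26 members had an unadjusted p under 0.05, and over all genes those comparisons called 13, 4 and 0.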

How the data were processed

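Testis RNA from 18 libraries was extracted with a combined RNA/DNA kit and prepared with an NEBNext Ultra II kit, per the labels' protocols. Tools named in the submitters' processing notes are DESeq2 1.34.0, STAR 2.7.7a and fastp 0.23.2. How reads were counted, on which strand and build, with which annotation and with what treatment of reads shared by paralogs is not stated in the sources used here. The deposited table holds a signal per gene and library that the authors made by dividing read counts by 1 size factor per library. Each library's values were whole multiples of 1 step, so whole reads were recovered (100% of values within a tolerance of 0.01). All columns were mapped to a sample (0 without one).

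Genes with a mean of at least 10 were tested with limma 3.58.1 (trend and robust; R 4.3.3) on log2(value + 1), fitting 6 group means to 17 libraries, with Benjamini-Hochberg adjustment over 18792 genes and a threshold of 0.05. Differences are on the log2(value + 1) scale, which understates changes of low genes. Alternatives were a pseudocount of 5, no filter, a filter on the mean of 17 libraries, TMM scaling, all 18 libraries, the compared groups alone, a replicate block, leaving out each library, and 2 count models fitted to those whole reads (DESeq2 1.42.0; edgeR 4.0.16, quasi-likelihood).

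Members and lists were chosen with earlier results of these data known. Named were the members past the threshold, or the 5 with the smallest p where fewer than 5 passed, the highest and most variable member of each complex, paralog pairs, and up to 4 genes of a list; 1 member so chosen is not reported here by name. The split into core and other subunits was made after the values were seen. No p-value was adjusted over the members alone. Matched sequences of the members were not used here.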

Additional observations from a re-analysis of the deposited data

Results flagged for a closer look

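The differences below between the lineages' responses to PFOS were tested as interaction terms in limma over 17 libraries, and each was past the adjusted threshold of 0.05. At 0.002 mg/L this applied to cox4i2 (-1.39). At 0.02 mg/L it applied to cox4i2 (-1.38), uqcrb (-1.26), ndufb9 (-1.22), ndufb7 (-1.13), cox6b2 ENSORLG00000024493 (-0.99), ndufa10 (-0.92) and ndufa8 (1.06). These are 1 and 7 of the 72 members, beside 0.899% and 14.2% of all genes tested. Only the call of cox4i2 at 0.02 mg/L held in every alternative run, and the others were lost on leaving out single libraries. In edgeR the calls of cox4i2 at 0.002 mg/L (adjusted p = 0.0570), uqcrb (0.0592) and ndufb7 (0.0613) were lost too. For uqcrb and ndufb7, BPA lineage PFOS 0.02 mg/L replicate 3 lay far above its group's other libraries, and their interactions were -1.66 and -1.52 without it. For ndufa8 the interaction was 0.76 without it and no longer past the threshold.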

How the results depend on the processing

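The precision is set by 3 libraries a group (2 in the control lineage at 0.002 mg/L), with 23.7 M to 47.7 M reads each. A pseudocount of 5, a filter on the mean of 17 libraries and TMM scaling left every count of called members within 1.5 times its value. No called value changed sign under the alternatives run. For single named genes, 758 alternative values kept direction and side of the threshold, 123 lost the call and 26 gained one. The cause of the shifts below was not tested.

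Each percentage is the share of all genes called by the same fit. Of the counts of called members, that for 0.002 mg/L in the control lineage (1) became 5 with all 18 libraries (7.85%), 0 with the compared groups alone (0.83%) and 2 in DESeq2 (13.1%). That for 0.02 mg/L in the control lineage (4) became 2 without a filter (9.74%), 0 with 18 libraries (0.0692%) and 8 in DESeq2 (20.2%). For the BPA lineage at 0.02 mg/L (0) DESeq2 gave 3 (5.74%). For the lineages without PFOS (2) 18 libraries gave 0 (0.0213%), the compared groups alone 6 (10.1%) and DESeq2 4 (17.7%). For the interaction at 0.002 mg/L (1) no filter (0.392%), 18 libraries (0%) and edgeR (0.303%) gave 0 each, the compared groups alone 16 (9.86%) and DESeq2 3 (8.99%). For the interaction at 0.02 mg/L (7) 18 libraries gave 1 (1.39%), the compared groups alone 2 (8.02%) and DESeq2 12 (20.2%).

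With 18 libraries the members' median moved from 0.32 to 0.67 for 0.002 mg/L in the control lineage, from -0.06 to -0.33 between the doses of that lineage, from -0.24 to -0.55 between the lineages at 0.002 mg/L and from -0.50 to -0.87 for the interaction at 0.002 mg/L.

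Leaving out 1 library at a time gave 0 to 3 calls for 0.002 mg/L in the control lineage, beside 0.0213% to 7.46% of all genes. For 0.02 mg/L there it gave 0 to 8 (0.41% to 16.6%), and for 0.02 mg/L in the BPA lineage 0 to 9 (0% to 3.63%). It gave 0 to 4 between the unexposed lineages, 0 to 4 for the interaction at 0.002 mg/L and 1 to 36 for that at 0.02 mg/L. The 36 stood beside 21.4% of all genes. The shares of all genes called thus moved between these fits as well. Apart from the 36, the counts for the unexposed lineages and the interactions are given without that share. They are no result about the members alone. The medians ran from -0.39 to 0.068 for 0.02 mg/L in the BPA lineage, from -0.19 to 0.27 between its doses, from -0.38 to 0.064 between the lineages at 0.02 mg/L and from -0.70 to -0.25 for the interaction at 0.02 mg/L.

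Replicate numbers gave no clear pairing of the libraries, which was described and not tested. Of 40 pairs with the same number 4 had correlated deviations over 0.1, with a median of -0.03 and a maximum of 0.31. Of 80 pairs with different numbers 12 did, with a median of 0.03 and a maximum of 0.19. With the replicate number as a block, the called members were 0 for 0.002 mg/L in the control lineage (1.39% of all genes) and 1 for 0.02 mg/L there (8.73%). They were 1 between the unexposed lineages, 0 for the interaction at 0.002 mg/L and 2 for that at 0.02 mg/L. These last counts are given without the share of all genes called by the same fit. They are no result about the members alone.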
